A study of Mus musculus with 8 samples.

Results

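The genes described here are 7 tetraspanins known from blood cells, Cd63, Cd9, Cd37, Cd53, Cd81, Cd82 and Cd151, matched by symbol among the 24222 symbols of the count tables. All 7 were in the tables and all 7 passed the filter on low counts, which kept 11498 genes. They were chosen by family and by the measured fall of Cd63 counts in the knockout, so the Cd63 difference is given as a description with no test. A further 24 tetraspanin genes, Upk1a, Upk1b, Prph2 and Rom1 among them, were looked up for comparison.

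The study measured RNA by sequencing in haematopoietic stem cells, the self-renewing cells at the root of blood formation, isolated from C57BL6 bone marrow by FACS, that is, sorting by fluorescence. One group was the WT control and the other a Kdm4a, Kdm4b and Kdm4c triple knockout (KO), both taken 2 weeks after the knockout was induced, with 4 mice and 4 libraries in each. The 3 deleted genes encode demethylases of lysines in histone H3. Not given in the sources used here are the sort markers, the animals' age and sex, and the driver and agent that induced the deletion.

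Tetraspanins are small membrane proteins with several membrane-spanning segments and a large extracellular loop. They bind each other, integrins, immunoglobulin-family proteins and proteases, and so gather these partners into shared patches of the membrane. CD63 is carried mainly in late endosomes, lysosomes, secretory granules and exosomes, whereas CD9, CD81 and CD151 sit largely at the cell surface, and CD37 and CD53 are largely restricted to blood cells.

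Libraries held 3594315 to 6044289 counts in WT and 5541504 to 14872493 in KO, the highest being KO mouse 3. Levels are in CPM, counts scaled to a common normalised library total, and a count of 3, taken as the floor, was worth 0.201 to 0.839 CPM. Kdm4c fell in KO, from 115 ± 22.7 to 36.0 ± 10.6 CPM (n = 4, SD; edgeR quasi-likelihood adjusted p = 2.05e-05). Kdm4a and Kdm4b also had every KO library below every WT library, as 2.93% of all genes tested did. Their log2 fold changes were -0.87 and -1.40, but they did not pass the threshold over all genes (edgeR adjusted p = 0.132 and 0.142). DESeq2 called Kdm4a (adjusted p = 0.0463). All 15 listed markers of haematopoietic stem cells passed the filter, among them Kit at 1090 ± 60.6 CPM in WT and the SLAM receptor gene Slamf1 at 104 CPM. Over all genes tested, the median log2 fold change of KO against WT was 0.002, and 29 genes (0.252%) passed an adjusted p of 0.05 as higher and 38 (0.33%) as lower.

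The promoters of Cd63, the gene that was lower in KO, and of Cd81, the most abundant of the 7, are shown because their start regions differ in base composition. Each sequence below runs 300 bases, from 250 before to 50 after the start of a RefSeq gene model (GRCm38.p6), read 5′ to 3′ on the gene's own strand, with each CpG dinucleotide in capitals. The Cd63 window lies on chromosome 10 (chr10:128909095-128909394, plus strand) and the Cd81 window on chromosome 7 (chr7:143052500-143052799, plus strand). The RefSeq start of Cd63 lies 8356 bases inside the gene as GENCODE vM21 bounds it, so the window is not that of the outermost annotated start, whereas the starts of Cd81 in both annotations lie 11 bases apart.
Cd63: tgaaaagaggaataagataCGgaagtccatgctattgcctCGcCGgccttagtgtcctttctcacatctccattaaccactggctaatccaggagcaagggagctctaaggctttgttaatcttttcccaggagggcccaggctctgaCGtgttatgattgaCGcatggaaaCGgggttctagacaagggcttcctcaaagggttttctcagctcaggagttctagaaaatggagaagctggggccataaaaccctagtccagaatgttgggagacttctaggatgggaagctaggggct
Cd81: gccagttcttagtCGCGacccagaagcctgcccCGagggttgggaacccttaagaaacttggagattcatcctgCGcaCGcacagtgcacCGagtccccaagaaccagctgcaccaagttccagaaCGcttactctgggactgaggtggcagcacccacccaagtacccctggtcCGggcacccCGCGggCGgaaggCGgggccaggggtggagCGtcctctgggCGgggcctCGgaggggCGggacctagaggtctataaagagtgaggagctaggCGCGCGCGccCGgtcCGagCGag
The Cd63 window held 6 CpG and the Cd81 window 23, against a median of 7 over the 32851 promoter windows of that table, of which 43.6% had fewer than 6 and 78.5% fewer than 23. All 7 genes matched, with 11 start windows in all because Cd82 and Cd151 have several. Cd53 held 4 CpG, Cd37 held 8 and Cd9 held 18, and the windows of Cd82 and Cd151 held 4 to 16 and 4 to 20. The letters GGGCGG, the core of a GC box, searched on both strands, occurred 3 times in the Cd81 window, 2 times in that of Cd9, 1 time in that of Cd37 and 0 times in those of Cd63 and Cd53. They occurred in 35.7% of all windows. TATAAA, also searched on both strands, was found 1 time for Cd81 and 0 times for Cd63, and in 13.6% of all windows. No chromatin data were used here, so the letters describe the genes only.

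Cd63 was at 72.1, 55.9, 78.3 and 53.2 CPM in WT mice 1 to 4, and at 22.9, 22.1, 26.1 and 28.6 CPM in KO mice 1 to 4. The lowest WT library was well above the highest KO library, so the groups did not overlap. The difference was 2.61-fold, a log2 fold change of -1.39 (SE 0.207, 95% interval -1.81 to -0.96), from a mean of 64.9 ± 12.2 to 24.9 ± 3.01 CPM (SD, n = 4). These are the values for which Cd63 was chosen, as 1 of the 38 genes called lower. The counts behind it ran from 154 to 416 per library. Sorted bulk RNA cannot tell fewer cells that carry a transcript from less RNA in each cell.

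**Figure D1:**
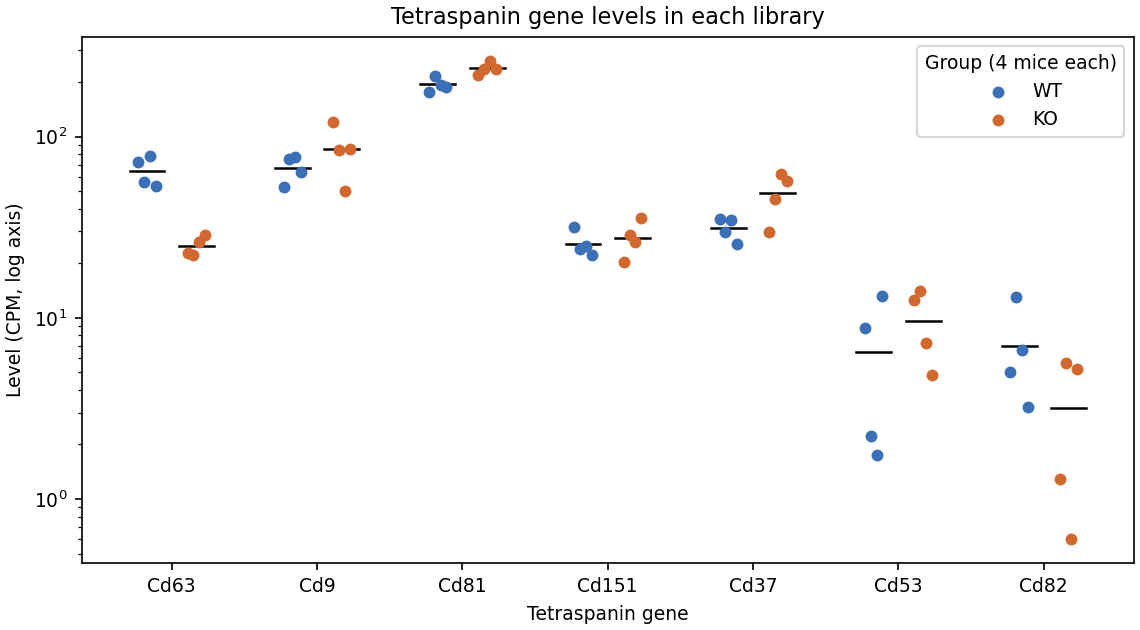
Level of each of the 7 tetraspanin genes in CPM on a log axis, with 1 point per library, WT in blue and KO in orange, and a black line at the mean of 4 mice. The Cd63 points lie between 53.2 and 78.3 CPM in WT and between 22.1 and 28.6 CPM in KO, while the groups of Cd9, Cd37, Cd53, Cd82 and Cd151 overlap.

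Cd63 spans chromosome 10, 128900989 to 128912822 on the plus strand (mm10), and its exons share no base with another annotated gene. A processed pseudogene, Cd63-ps on chromosome 18, is 98.5% identical to the longest coding Cd63 transcript over 812 aligned bases of its 1109. It is annotated as transcribed, but its symbol is not among those counted. How reads that fit both places were counted is not stated, so the Cd63 level is uncertain to that extent. The genes around Cd63 gave no call. Of 11 other genes in the tables within 100 kb, 6 were tested, 0 passed in edgeR (smallest adjusted p = 0.474), and 0 reached an unadjusted p under 0.05. Their log2 fold changes ran from -0.33 for Dnajc14, a heat-shock-family cochaperone gene, to 0.77 for Ormdl2, a regulator of sphingolipid synthesis. The nearest genes tested on either side, Gdf11, a TGF-beta-family ligand, and Bloc1s1, a subunit of a lysosome-organelle complex, were at 0.63 (SE 0.56) and 0.10 (SE 0.243) on the same log2 scale.

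Markers of other cells were read in the same libraries, among them mast cells, basophils and platelets, which carry much CD63 protein. Of 13 mast cell, basophil and eosinophil markers, the mast cell protease and tryptase genes Prss34, Tpsb2, Tpsab1 and Mcpt4 were at 0 in every library, and 6 had no more than 3 counts in any library. Others had reads, with up to 25 counts in a library for Ms4a2, 22 for Fcer1a and 47 for Prg2. Only 2 of the 13 were tested, Cpa3 and Gata2. Both had a fold below 1, at log2 fold changes of -0.80 and -0.05, and neither passed (edgeR adjusted p = 0.641 and 0.944). The summed level of the 13 was 327 to 428 CPM in WT and 280 to 422 CPM in KO, most of it from Gata2, which stem cells also express. The 14 megakaryocyte and platelet markers summed to 1090 to 1380 CPM in WT and 1240 to 1370 CPM in KO. Of the 12 tested, Itga2b and Gp1ba rose and Thbs1 fell (0.583% of all genes passed). Thbs1 went from 34.4 ± 9.95 to 8.95 ± 2.18 CPM (edgeR, adjusted p = 0.00173), so it was lower in KO as Cd63 was. Most of the 12 went the other way, with 9 above a fold of 1 (50.2% of all genes were) and 3 below. Their median log2 fold change was 0.62. The 12 macrophage and dendritic cell markers went both ways. Their summed level was 92.4 to 195 CPM in WT and 203 to 271 CPM in KO, mostly from the antigen-presentation genes Cd74, H2-Aa and H2-Ab1. Of the 6 tested, Cd68 and Cd74 rose, whereas Mrc1, the mannose receptor gene, fell (0.583% of all genes passed). Mrc1 went from 6.09 ± 3.96 to 0.989 ± 0.602 CPM (edgeR adjusted p = 0.02). It rested on 4 to 61 counts per library, and its KO values, 0.566 to 1.86 CPM, lay near the floor. Vcam1, an adhesion molecule of marrow macrophages and stroma, was at 7.75 ± 1.63 and 2.69 ± 0.603 CPM (edgeR adjusted p = 0.135). Its groups did not overlap (2.93% of all genes were lower without overlap), and Siglech was at 0. The 15 stem cell markers summed to 5120 to 5500 CPM in WT and 4240 to 4760 CPM in KO. This sum was thus lower in each KO library, although edgeR called 0 of the 15. Unadjusted p was under 0.05 for 1 higher and 6 lower (11.2% of all genes had such a p). The 11 erythroid markers summed to 2190 to 2430 CPM in WT and to 1250 to 1460 CPM in KO. Most of this was Car2, which fell from 2290 ± 111 to 1310 ± 84.9 CPM (edgeR adjusted p = 4.19e-06). Of the 6 tested, only Car2 was called (0.583% of all genes passed). The fold was below 1 for 5 and above 1 for 1 (50.2% of all genes were above). Many markers of the remaining cell types did not pass the filter on low counts. Tested were 4 of 11 for neutrophils and monocytes, 1 of 8 for B cells, 4 of 9 for T and NK cells, and 5 of 10 for stroma and endothelium. Of those tested, edgeR called 0, where 0.583% of all genes passed. The part of these markers in the Cd63 difference was not tested.

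The other 6 genes gave no call. In edgeR's quasi-likelihood test 0 of 6 passed over all genes, where 0.583% of all genes did, and DESeq2 and limma voom also called 0. Unadjusted p was under 0.05 for 3 of the 6, against 11.2% of all genes, with Cd37 and Cd81 higher and Cd82 lower in KO. Of the 6, 5 had a fold above 1 (50.2% of all genes did), and the median log2 fold change of the 6 was 0.31.

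Among the surface tetraspanins, Cd81 encodes a partner of integrins and of interferon-induced transmembrane proteins. It was at 177, 217, 194 and 189 CPM in WT mice 1 to 4 and at 220, 236, 263 and 236 CPM in KO mice 1 to 4. Every KO library lay above every WT library, though the highest WT and the lowest KO value were close, and 2.88% of all genes tested were higher without overlap (2.93% were lower, 5.81% either). The log2 fold change was 0.31 (SE 0.123, 95% interval 0.05 to 0.56), which did not pass over all genes (edgeR adjusted p = 0.327). Cd81 had the smallest spread of the 7, with a coefficient of variation of 8.6% over WT mice and 7.48% over KO mice, and the most counts, 776 to 3939 per library.

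Cd9, which encodes a close relative of CD81 that is abundant on platelets, was at 52.7, 75.8, 77.6 and 64.1 CPM in WT mice 1 to 4. In KO mice 1 to 4 it was at 120, 84.8, 49.9 and 85.8 CPM, so KO mouse 1 was the highest of all 8 libraries and KO mouse 3 the lowest. The log2 fold change of 0.31 (SE 0.222, 95% interval -0.15 to 0.77, edgeR adjusted p = 0.65) was as large as that of Cd81 but lay within a wider spread. It was 0.08 without KO mouse 1 and 0.54 without KO mouse 3. An opposite-strand gene, Gm26728, covers 10.7% of the Cd9 exons, and whether the counting used strand is not stated. A processed pseudogene, Cd9-ps on chromosome 7, is 90.7% identical to the Cd9 transcript over the aligned stretch.

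Cd151 encodes a partner of the laminin-binding integrins. It was at 31.6, 24.1, 24.9 and 22.3 CPM in WT mice 1 to 4 and at 20.3, 28.6, 26.3 and 35.5 CPM in KO mice 1 to 4, and the KO libraries held both the lowest and the highest of the 8 values. The log2 fold change of 0.08 (SE 0.246, 95% interval -0.43 to 0.58, edgeR adjusted p = 0.951) became -0.01 without WT mouse 4 and -0.03 without KO mouse 4.

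Of the blood-restricted pair, Cd37 encodes a regulator of integrin and antigen-receptor signalling in lymphocytes. It was at 35.2, 29.9, 34.5 and 25.7 CPM in WT mice 1 to 4 and at 29.7, 45.6, 62.3 and 57.0 CPM in KO mice 1 to 4. KO mice 2, 3 and 4 lay above all WT libraries, while KO mouse 1 lay among them. With Cd63 left out, Cd37 had the smallest p of the tetraspanins tested, with a log2 fold change of 0.66 (SE 0.238, 95% interval 0.18 to 1.15, edgeR adjusted p = 0.26). Cd53, a pan-leukocyte tetraspanin, was at 8.84, 2.24, 1.76 and 13.2 CPM in WT mice 1 to 4 and at 12.6, 14.0, 7.22 and 4.83 CPM in KO mice 1 to 4. WT mice 2 and 3 rested on 8 and 9 counts, and the coefficient of variation over WT mice was 84.7%, the largest of the 7. Its interval, -0.57 to 1.35 on the log2 scale, was correspondingly wide (log2 fold change 0.39, edgeR adjusted p = 0.825). The log2 fold change was 1.00 without WT mouse 4 and 0.08 without WT mouse 3.

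Cd82, known as a metastasis suppressor and, in stem cells of the marrow, as a gene tied to quiescence, was the only other member below its WT level. It was at 5.03, 13.1, 6.66 and 3.23 CPM in WT mice 1 to 4, and at 1.29, 5.66, 0.602 and 5.20 CPM in KO mice 1 to 4. KO mice 1 and 3 were the lowest, with 9 counts each, whereas KO mice 2 and 4 lay among the WT libraries. The log2 fold change of -1.31 (SE 0.601, 95% interval -2.55 to -0.07, edgeR adjusted p = 0.408) was close in size to that of Cd63 but rested on 9 to 47 counts per library. It was -1.89 without KO mouse 2 and -0.67 without KO mouse 3.

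**Figure D2:**
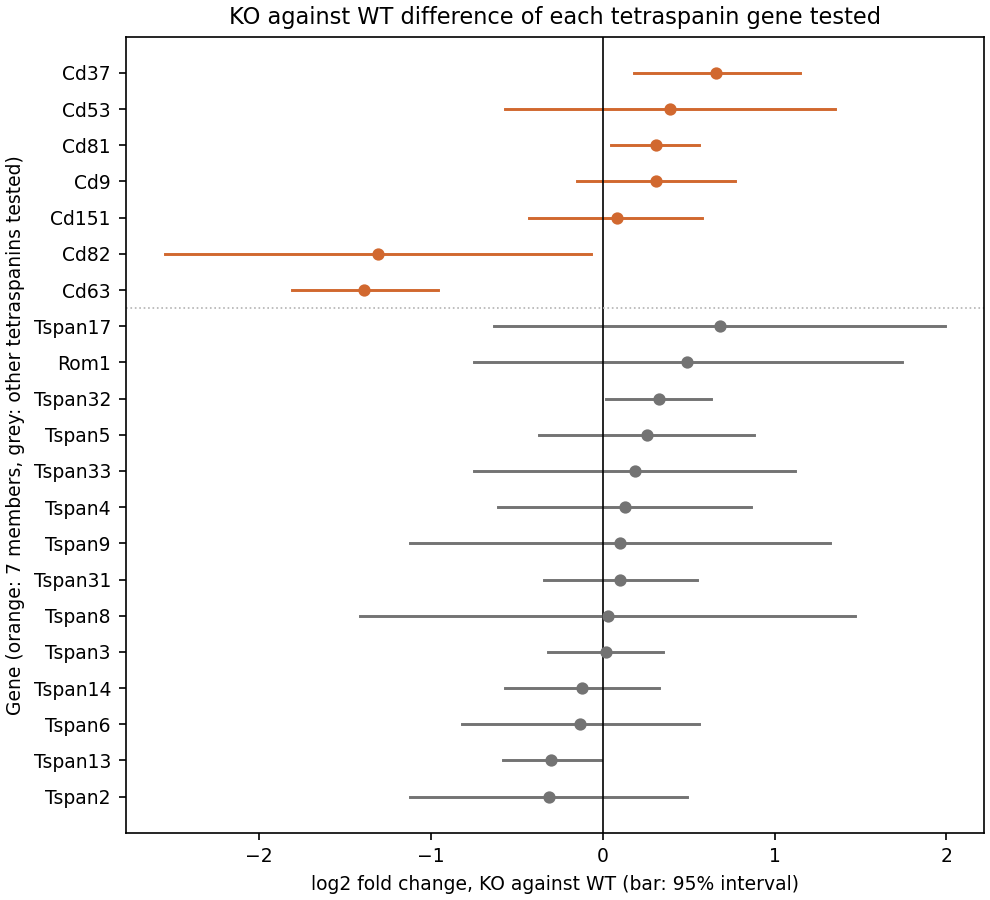
Log2 fold change of KO against WT, as points with 95% intervals as bars, for the 7 members in orange and the 14 other tetraspanin genes tested in grey. Cd63 lies at -1.39 with an interval from -1.81 to -0.96, Cd82 at -1.31 with an interval that nearly reaches 0, and the other points lie between -0.31 and 0.68.

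Levels of different genes were compared per length, as CPM per kilobase of all annotated exons (RPKM) in the WT libraries alone. The order describes these libraries and was not tested, since the WT level of Cd63 is part of the difference for which it was chosen. Cd81 was highest at 67.5 ± 5.81 RPKM (SD, n = 4), followed by Cd9 at 33.0 ± 5.66, Cd63 at 17.6 ± 3.32, Cd151 at 9.37 ± 1.48, Cd37 at 8.89 ± 1.26, Cd53 at 3.74 ± 3.17 and Cd82 at 2.33 ± 1.44 RPKM. The ranges of Cd81, Cd9, Cd63 and Cd151 did not overlap between neighbours in this order. Those of Cd151 and Cd37, of Cd37 and Cd53, and of Cd53 and Cd82 did, so these neighbours did not differ beyond their spread. The place of Cd63 depended on the length used. All its annotated exons add up to 3682 bases but its longest coding transcript is 1109 bases long, and per kilobase of the latter Cd63 was at 58.5 ± 11.0 RPKM and Cd9 at 55.0 ± 9.42 RPKM, with overlapping ranges. Cd81 stayed highest, at 127 ± 10.9 RPKM.

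**Figure D3:**
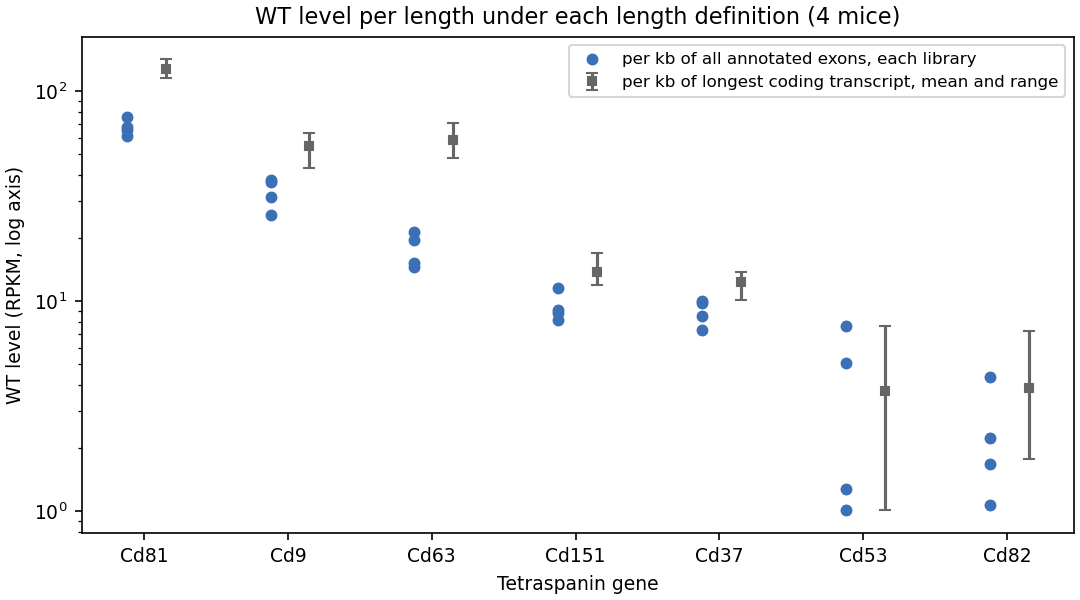
Level of the 7 genes in the 4 WT libraries on a log axis, in RPKM per kilobase of all annotated exons (blue points, 1 per library) and per kilobase of the longest coding transcript (grey squares at the mean, bars over the range). Cd81 is highest under both, whereas Cd63 moves from 17.6 RPKM, below Cd9, to 58.5 RPKM, level with it.

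In each of the 8 libraries Cd81 was the most abundant of the 7. It made up 45.3% to 50.1% of their summed RPKM in WT and 46.3% to 59.2% in KO. The share of Cd63 was 10.1% to 14.5% in WT and 3.68% to 4.70% in KO, a description of the same difference for which it was chosen. Per kilobase of the longest coding transcript the shares of Cd63 were larger, 17.6% to 24.8% in WT and 6.93% to 8.70% in KO. The summed RPKM of the 7 was 135 to 151 in WT and 155 to 165 in KO per kilobase of all exons, but 255 to 292 and 279 to 297, with overlap, per kilobase of the longest transcript. The mean levels of Cd81 and Cd9 in KO were 83.0 and 41.7 RPKM. The difference in this sum was not tested.

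Of the 24 other tetraspanin genes, 14 were tested and edgeR called 0 (adjusted p 0.406 to 0.992). DESeq2 and limma voom called 0, and 2 of 14 had an unadjusted p under 0.05 (11.2% of all genes did). Of the 14, 10 had a fold above 1 (50.2% of all genes did) and their median log2 fold change was 0.10. The 10 that were not tested had at most 24 counts in any library, and the uroplakin genes Upk1a and Upk1b, known from the bladder lining, were at 0 throughout. The highest of them per kilobase of all exons was Tspan13, at 84.3 ± 15.4 RPKM in WT (SD, n = 4). Its range, 72.4 to 106 RPKM, overlapped that of Cd81, 61.5 to 75.4 RPKM, and per kilobase of the longest coding transcript Tspan13 was at 108 ± 19.7 and Cd81 at 127 ± 10.9 RPKM, so their order depended on the length. Tspan13 was at 209, 179, 184 and 262 CPM in WT mice 1 to 4 and at 174, 177, 183 and 147 CPM in KO mice 1 to 4, with overlapping groups and a log2 fold change of -0.30 (SE 0.138, edgeR adjusted p = 0.419). Tspan14, one of the tetraspanins that carry the protease ADAM10 to the surface, was at 39.3 ± 8.13 RPKM in WT, and Tspan3 at 23.2 ± 4.25 RPKM. Their log2 fold changes were -0.12 and 0.02, with 95% intervals of -0.57 to 0.33 and -0.32 to 0.35.

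Several of the 7 lie next to another family member in the genome. Cd81 (chromosome 7, 143052739 to 143067934) is 33094 bases from Tspan32, a blood-cell tetraspanin on the same strand. Tspan32 was at 97.3, 90.1, 92.8 and 90.5 CPM in WT mice 1 to 4 and at 119, 116, 128 and 97.3 CPM in KO mice 1 to 4. The groups met at WT mouse 1 and KO mouse 4 without overlapping (2.88% of all genes were higher without overlap). The Tspan32 log2 fold change of 0.33 (SE 0.149, edgeR adjusted p = 0.406) stood beside 0.31 for Cd81, and neither passed. Cd151 (chromosome 7, 141467392 to 141471473) is 3766 bases from Tspan4, at log2 fold changes of 0.08 and 0.13. Cd82 (chromosome 2, 93419111 to 93463140) is 84605 bases from Tspan18, which had too few counts to be tested. No other tetraspanin lay within 100 kb of Cd63, Cd9, Cd37 or Cd53.

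Genes whose proteins are known to bind tetraspanins moved in both directions. Of 30 such surface partners, 27 were tested, 1 rose and 1 fell, against 0.252% and 0.33% of all genes. Adam10, the protease that several tetraspanins escort, fell from 353 ± 9.80 to 231 ± 21.3 CPM (SD, n = 4, log2 fold change -0.62, SE 0.115, edgeR adjusted p = 0.00641). Itga2b, the CD41 integrin chain that CD9 and CD63 accompany on platelets, rose from 53.0 ± 12.6 to 105 ± 15.2 CPM (log2 fold change 0.98, SE 0.183, edgeR adjusted p = 0.00737). The groups of neither gene overlapped, as was so for 5.81% of all genes tested. The median log2 fold change of the list was 0.05, with 16 of the 27 above a fold of 1, as 50.2% of all genes were. Itgb1, the integrin chain most often found with tetraspanins, was at 392 ± 16.3 and 411 ± 36.7 CPM in WT and KO. The immunoglobulin-family partners Igsf8 and Ptgfrn were at 13.8 ± 7.58 and 12.7 ± 6.64 CPM, and at 2.97 ± 2.06 and 2.36 ± 1.81 CPM. Timp1, which encodes a ligand of CD63, had at most 1 count in any library.

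Genes that sort CD63 to lysosomes or release it in exosomes gave no call. Of 30 tested, 0 passed edgeR's test, DESeq2 and limma voom called 0, and 1 had an unadjusted p under 0.05 (11.2% of all genes did). That gene, Rab7, which encodes the GTPase of late endosomes, was at 429, 305, 308 and 348 CPM in WT mice 1 to 4 and at 480, 447, 477 and 432 CPM in KO mice 1 to 4 (log2 fold change 0.40, SE 0.118, edgeR adjusted p = 0.142). The median of the list was -0.05, and 14 of 30 had a fold above 1 (50.2% of all genes did). The lysosomal membrane genes Lamp1 and Lamp2, whose proteins share the compartment of CD63, were at 162 ± 19.1 and 295 ± 47.7 CPM in WT and at 184 ± 26.7 and 317 ± 50.2 CPM in KO. Ap3b1, a subunit of the adaptor that carries CD63 to lysosomes, had a log2 fold change of -0.17 (SE 0.119). The exosome genes Sdcbp and Pdcd6ip, which encode syntenin and ALIX, had log2 fold changes of 0.07 and -0.22. Of 6 palmitoyltransferase genes, whose enzymes add the lipid anchors that hold tetraspanin patches together, 0 passed edgeR's test and 0 had an unadjusted p under 0.05. The smallest p was that of Zdhhc20 (log2 fold change 0.28, edgeR adjusted p = 0.459).

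The pattern of Cd63 over the 8 libraries was compared with that of 9569 other genes by the root mean square difference of log2 CPM, each gene being centred on its own mean. The closest was S1pr4, a sphingosine 1-phosphate receptor gene, at 0.148, followed by the surface peptidase gene Dpp4 at 0.268, the centromere protein gene Cenpb at 0.288, the nucleolar gene Nom1 at 0.289 and the transcription factor gene Sox6 at 0.297. S1pr4 was at 40.0, 42.5, 43.9 and 32.9 CPM in WT mice 1 to 4 and at 15.6, 14.9, 18.4 and 18.6 CPM in KO mice 1 to 4, and like Cd63 it was lowest within WT in mouse 4 and lowest within KO in mouse 2. All 5 had every KO library below every WT library, which follows from the measure, since Cd63 itself has that pattern. The other tetraspanins of the group were far from it, at 0.756 for Cd151, 0.864 for Cd81, 0.937 for Cd9, 1.01 for Cd37, 1.04 for Cd82 and 1.56 for Cd53. Cd151, the nearest of them, stood at rank 4331. These distances include the WT to KO difference for which Cd63 was chosen. A gene without a like difference is therefore far from it by the measure, and the distances are no separate result.

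**Figure D4:**
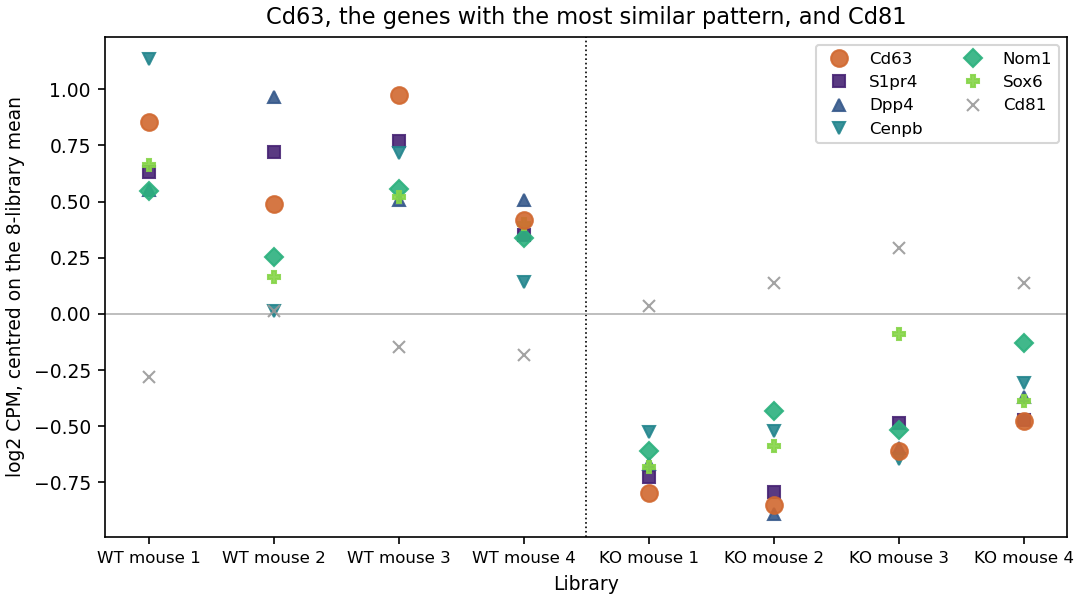
Log2 CPM centred on the mean of 8 libraries, by library, for Cd63 (orange circles), the 5 genes whose pattern is most like it and Cd81 (grey crosses), with a dotted line between WT and KO. Cd63 and the 5 genes lie above 0 in all WT libraries and below 0 in all KO libraries, and Cd81 the other way apart from WT mouse 2, where it lies just above 0.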

How the data were processed

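The members and gene lists were chosen with earlier results of these data known. The authors deposited raw read counts by gene symbol, 1 table per mouse. Per the labels' protocols, total RNA was amplified to cDNA with the Nugen Ovation system and sequenced on an Illumina NextSeq, and reads were mapped with STAR (2.4.0d-2) and counted with htseq-count (0.6.1galaxy1). The build was mm10, per the submitters' processing notes. Not given in the sources used here are the annotation and the strand setting. The labels name no molecular identifiers, so the floor of 3 counts covers counting error only. The 95% intervals come from the fit and include the spread between mice.

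Counts were tested with edgeR 4.0.16 in R 4.3.3 by the robust quasi-likelihood test, with genotype as the only term, after filterByExpr (minimum count 10, total 15) and TMM scaling (factors 0.974 to 1.03). Tests were two-sided, with Benjamini-Hochberg adjustment over all 11498 genes. The SE is the log2 fold change divided by the square root of F. The procedure was tested on simulated data. Gene lengths and positions came from GENCODE vM21, which matched 23053 of 24222 symbols. Libraries of a group differed by more than sampling noise in every pair (chi-square per degree of freedom at least 10.9). Named genes were the 7 members, the 3 targeted genes, up to 3 genes past the threshold in each list (or the one with the smallest p), the 3 other tetraspanins highest in WT RPKM, and the 5 patterns most like Cd63 among genes with a mean of at least 5 CPM. Other genes named, among them the neighbours of Cd63, further partners and markers, were chosen after their values were seen.

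Alternatives were DESeq2 1.42.0 and its size factors, limma voom (limma 3.58.1), edgeR's legacy method, library totals, no filter, 5 CPM in 4 libraries, thinning to 3594315 counts, removal of ribosomal RNA, the mouse number as a block, and omission of each library. The shares of Cd63 and Cd81 and the level of Tspan13 per longest coding transcript were added after seeing the data.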

Additional observations from a re-analysis of the deposited data

Results flagged for a closer look

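Of 46 sets of 4 libraries checked, for 23 named genes in 2 groups, 1 had a library far from the rest by Dixon's criterion, which chance exceeds in about 1 of 20 sets. Dpp4 was at 65.2 CPM in WT mouse 2, while the other WT libraries lay between 47.4 and 48.9 CPM. No tetraspanin library was singled out in this way.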

How the results depend on the processing

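The Cd63 log2 fold change ran from -1.49 to -1.28 over 18 alternatives, the same range as on leaving out single libraries. In all 18, the calls among the other 6 members, the other tetraspanins and the endosome list stayed at 0. The 67 calls over all genes became 199 without a filter and 154 with DESeq2, and ran from 35 (without WT mouse 3) to 70 on leaving out a library, with 44 without WT mouse 2 or KO mouse 4. The surface partners had 4 calls without a filter, and 2 to 3 on leaving out a library. The order of WT levels held for 3 of 7 genes with the longest transcript as length, 5 of 7 with thinned counts, and 5 to 7 on leaving out a library. Directions turned only near 0. Cd151 was at -0.01 without WT mouse 4 and -0.03 without KO mouse 4 (highest 0.20 without a library), and Tspan14 at 0.12 without KO mouse 3 (lowest -0.25). Tspan3 was at -0.01 with limma voom, -0.02 with thinned counts, -0.08 without WT mouse 1, -0.05 without KO mouse 1 and -0.01 without KO mouse 4; the cause was not tested. With the mouse number as a replicate block, 57 genes passed and Cd63 was at -1.39. Of the named genes only Nom1 lost its call with the block (adjusted p 0.0853 in edgeR with the block, against 0.0368). Nom1 lost its call in 10 of 18 alternatives (adjusted p 0.00176 to 0.151 over its alternatives). These were the block, limma voom, edgeR's legacy method and the omission of any library except KO mouse 4. The labels say nothing of shared litters or days, and same-numbered mice did not deviate together (correlations -0.089 to -0.005). With 4 mice in each group this cannot exclude shared litters or days. The number was taken only to name a mouse. S1pr4 lost its call without WT mouse 3 (edgeR adjusted p 0.0517), and Sox6 without KO mouse 2 or either of WT mice 1 and 3 (up to 0.078). DESeq2 gave calls that edgeR did not for Kdm4a (adjusted p 0.0463, over its alternatives up to 0.474) and Cenpb (0.0491, up to 0.351). Cd53 and Cd82 rested on as few as 8 and 9 counts in a library.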
